A study of Caenorhabditis elegans with 2 samples.

Results

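The col genes are the numbered cuticle collagen genes of the nematode Caenorhabditis elegans, and their peaks were described in a chromatin immunoprecipitation and sequencing (ChIP-seq) experiment on the Hox protein MAB-5. Every nuclear protein-coding gene with a symbol made of col and a number was taken, which gave 156 of 19973 genes of the WBcel235 assembly. Of these, 41 lay on chromosome IV, 31 on V, 27 on X, 24 on II, 21 on I and 12 on III. The experiment used whole worms of strain OP27, labelled as mixed-stage embryos of mixed sex. The strain carries unc-119(ed3) III and the integrated transgene wgIs27, and the labels name eGFP-mab-5 as the target and mab-5 as the antibody. Both libraries, biological replicates 1 and 2, had the same genotype and stage and a size range of 150 to 350, so they formed 1 group of 2 samples and nothing in the design stood against it. The labels do not state where the transgene is expressed, and a peak from whole embryos does not say in which cells the protein was bound.

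The cuticle of C. elegans is an extracellular coat that the epidermis secretes late in embryogenesis and again at each larval molt. Its main structural proteins are collagens, short proteins with repeated glycine-X-Y triplets that are trimmed, assembled into trimers and cross-linked outside the cell. MAB-5 is an Antennapedia-class homeodomain protein of the posterior body, known for its roles in the migration of neuroblasts and in the epidermal lineages that make the male tail rays. The collagen part of the label fitted the reference sequences, and the cuticle part fitted most of the product names. All 156 translated coding sequences held a run of at least 3 Gly-X-Y triplets, which covered a median of 51.0% of the residues (lowest 22.3%, highest 90.0%), and 149 of the RefSeq product names contained the word cuticle.

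The authors deposited a relaxed peak list of 30000 peaks, background included, for each replicate and for the pooled replicates, and a thresholded list of 502 peaks derived from these 3 lists. A gene was counted where the summit of a peak, its highest point, lay between 2000 bp before and 500 bp after the gene start. The signal of a peak is the authors' own value on a scale that no source used here states, and it is compared only within a list. Read depth is unknown, and the equal length of the relaxed lists says nothing about it.

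The 4 sequences below are shown because they lie at the strongest MAB-5 peak of the 4 col genes whose peak ranked highest in both replicates. Each runs 60 bases to either side of the pooled summit, from the WBcel235 genome of RefSeq, 5′ to 3′ on the minus strand, which is the strand of the gene. Capitals mark bases inside an annotated transfer RNA (tRNA) or small nuclear RNA (snRNA) gene, and the sequence with none is all lower case.
col-94 (III:10989596-10989716): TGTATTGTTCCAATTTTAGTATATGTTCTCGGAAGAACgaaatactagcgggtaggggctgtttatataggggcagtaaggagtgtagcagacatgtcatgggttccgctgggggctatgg
col-71 (II:3502758-3502878): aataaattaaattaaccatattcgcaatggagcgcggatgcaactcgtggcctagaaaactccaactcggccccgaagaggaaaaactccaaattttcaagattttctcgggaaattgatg
col-85 (II:12494728-12494848): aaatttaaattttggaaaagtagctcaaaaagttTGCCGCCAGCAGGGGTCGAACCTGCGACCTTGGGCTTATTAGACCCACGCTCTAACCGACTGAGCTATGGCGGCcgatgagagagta
col-185 (X:13511888-13512008): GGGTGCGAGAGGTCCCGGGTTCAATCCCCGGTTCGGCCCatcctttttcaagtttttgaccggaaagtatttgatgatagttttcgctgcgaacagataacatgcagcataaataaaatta
The RNA genes cover 38, 74 and 39 of the 121 bases at col-94, col-85 and col-185, and 0 at col-71.

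Summits of the relaxed lists, which include background, lay at a smaller share of col genes than of genes in general in each of the 3 lists. In the pooled relaxed list 52 of the 156 col genes had a summit, 33.3% (exact 95% interval 26.0 to 41.3%), against 54.3% of all genes. Replicate 1 reached 65 col genes, 41.7% (33.8 to 49.8%), against 58.0% of all genes. Replicate 2 reached 60 col genes, 38.5% (30.8 to 46.6%), against 55.7% of all genes. Over both replicates the share was 40.1 ± 2.27% for col genes and 56.8 ± 1.60% for all genes (SD, n = 2), and the difference between them was -16.8 ± 0.66 percentage points. The gap was thus of the same size in either replicate and larger than the spread between them; intervals here cover counting error only, and neighbouring genes can share a peak, so genes are not independent.

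The gap was also present where both replicates had to hold a summit. A summit in both replicates was present at 28 col genes, 17.9% (12.3 to 24.9%), against 37.9% of all genes. A summit in neither was the case for 59 col genes, 37.8%, against 24.2% of all genes. One in a single replicate was the case for 69 col genes, 44.2%, against 37.9% of all genes, and these 69 split into 37 with replicate 1 only and 32 with replicate 2 only. Taking the pooled list as well, 57 col genes, 36.5%, had no summit in any of the 3 relaxed lists, against 21.9% of all genes. At the other end 24 col genes, 15.4%, were in all 3 lists, against 33.4% of all genes. Where both replicates reached a gene, their nearest summits lay within 170 bp of each other at 12 of the 28 col genes, 42.9%, against 49.3% of all genes with both.

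Among the strongest pooled peaks the share of col genes was lower still relative to all genes, except at the very top of the list, where a few col sites lay. Of the 5000 strongest pooled peaks a summit reached 12 col genes, 7.69% (4.04 to 13.1%), against 16.6% of all genes. Of the 2500 strongest it reached 5 col genes, 3.21%, against 10.2% of all genes, a ratio of 0.313, the lowest of the pooled list, with 0.545 in replicate 1 and 0.476 in replicate 2. Of all 30000 peaks the ratio was 0.613 in the pooled list, 0.719 in replicate 1 and 0.691 in replicate 2. The thresholded list reached 3 col genes, 1.92% (0.398 to 5.52%), against 2.48% of all genes, and a difference was not detectable with so few genes. The strongest pooled summit of a col gene had a median signal of 10.9 and a median rank of 15861.5, against 12.9 and 10115 over all genes with a summit. Medians of the signal were 5.45 in col genes and 5.68 in all genes in replicate 1, and 8.53 in col genes and 9.54 in all genes in replicate 2.

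**Figure D1:**
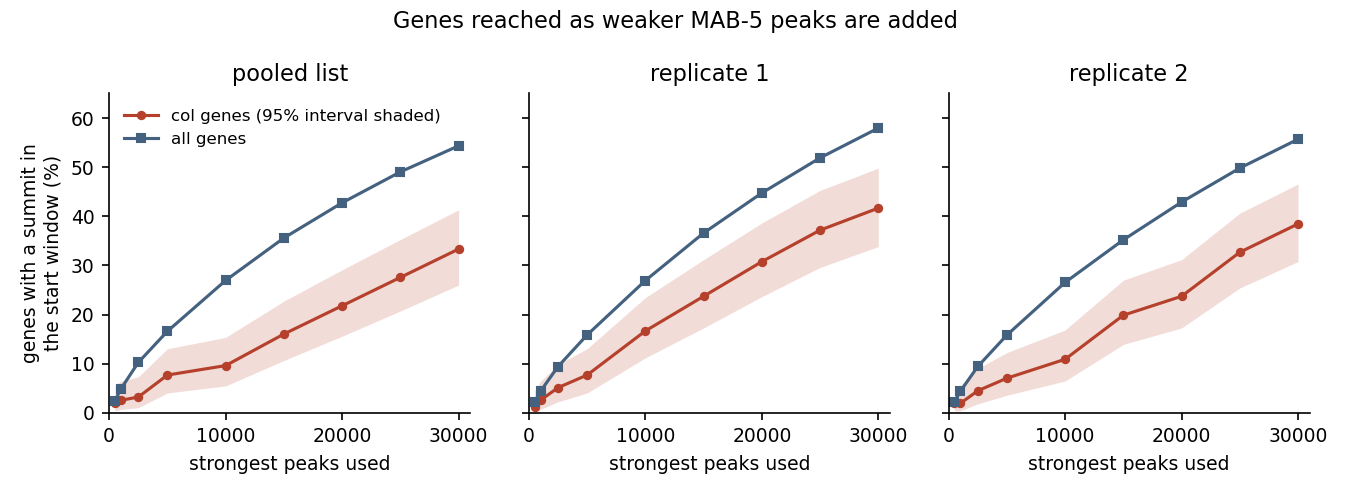
The share of genes (y axis, percent) with a summit in the start window is plotted against the number of strongest peaks used (x axis) for the pooled list, replicate 1 and replicate 2, with col genes in red (exact 95% interval shaded) and all genes in blue. With all 30000 peaks the red line ends at 33.3% in the pooled list, 41.7% in replicate 1 and 38.5% in replicate 2, below the blue line in each panel; at 500 peaks the lines lie close together.

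The crest of summits that genes in general had just upstream of the start was small or missing in col genes. In the 500 bp before the start, 10.3% of col genes had a pooled summit (5.98 to 16.1%), against 22.3% of all genes. Replicate 1 gave 15.4% of col genes and 22.1% of all genes in that bin, and replicate 2 gave 10.9% of col genes and 21.9% of all genes. From 1000 to 500 bp before the start the pooled share was 11.5% for col genes and 15% for all genes. Downstream of the start the col genes were lowest. From 500 to 1000 bp past the start, 3.85% of col genes had a pooled summit against 12.2% of all genes, with 5.77% against 12.9% in replicate 1 and 2.56% against 12.4% in replicate 2. In the pooled list the share of col genes was also low from 2500 to 1000 bp before the start, at 7.05, 7.69 and 7.69% in the 3 bins against 13.6, 13.8 and 14.3% of all genes, and from 1000 to 1500 bp past it, at 5.77% against 12.2%. Farther out the pooled shares were close in some bins only. They were 14.1% of col genes and 13.9% of all genes from 4500 to 4000 bp upstream. From 2000 to 2500 bp downstream they were 11.5% of col genes and 12.4% of all genes. The pooled share of col genes was lower from 4000 to 3500 bp upstream, at 8.97% against 13.5%. It was also lower from 2500 to 3000 bp downstream, at 8.97% against 12.9%. Replicate 1 had a higher share in col genes from 3500 to 3000 bp upstream, at 16.7% against 14.1%.

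**Figure D2:**
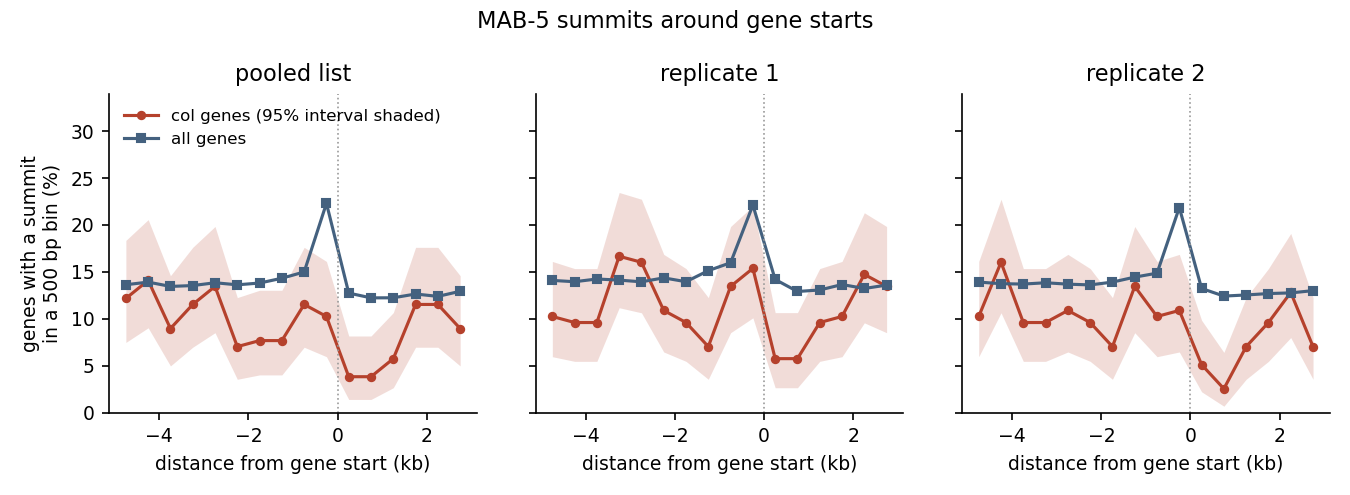
The share of genes with a summit in each 500 bp bin (y axis, percent) is plotted against distance from the gene start (x axis, kb, negative is upstream) for col genes in red (exact 95% interval shaded) and all genes in blue. All genes crest at 22.3, 22.1 and 21.9% in the bin before the start, while col genes hold 10.3, 15.4 and 10.9% there and fall to their lowest pooled value, 3.85%, in the bins after it.

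Few summits lay inside the col genes themselves. Pooled summits fell in 14 of the 156 col genes, 8.97%, against 40.5% of all genes, at 0.0895 per kb in col genes and 0.268 per kb in all genes. Replicate 1 had summits in 27 col genes, 17.3%, against 44.8% of all genes, at 0.153 per kb in col genes and 0.276 per kb in all genes. Replicate 2 had them in 20 col genes, 12.8%, against 42.2% of all genes. Col genes are short, with a median length of 1220 bp against 2027 bp, but among genes no longer than the median of all genes the density was still 0.0594 per kb in 136 col genes against 0.202 per kb in 9990 genes. Replicate 1 gave 0.107 and replicate 2 gave 0.0891 per kb in these short col genes, against 0.237 and 0.217 per kb in short genes at large. Col gene bodies also held more sequence found elsewhere in the genome. The share of their 31-base words that occurred more than once had a median of 1.43%, against 0 for all genes. Its upper quartile was 16.3% for col genes and 3.93% for all genes. The part of such repeats in the lower density was not tested. Of the 65 pooled summits in col windows, 59 were upstream of the start and 6 downstream, and 41 were intergenic, 13 intronic, 7 in coding exons and 5 in untranslated regions, where a summit in the 5′ untranslated region of col-74 and an intron of gtap-1 was counted under both. The start nearest to the summit was that of the col gene in 51 of the 65. These counts describe the col windows alone, with no share over all genes beside them. The window itself reaches 2000 bp upstream and only 500 bp downstream.

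In the 3 relaxed lists the lower share was seen on each chromosome, with gaps of unequal size. The 3 thresholded col genes, 2 on II and 1 on III, were too few to split. On chromosome V, 22.6% of the 31 col genes had a pooled summit against 46.4% of all genes, with 16.1% against 49.2% in replicate 1 and 22.6% against 48.1% in replicate 2. On X the replicates parted, with 59.3% of 27 col genes against 60.8% of all genes in replicate 1, and 33.3% against 56.7% in replicate 2. On III, where there were 12 col genes, 25% had a pooled summit against 64.7% of all genes, with 58.3% against 67.8% in replicate 1 and 50% against 66.0% in replicate 2. Base composition and repeats also set col windows apart. The median GC content of the start windows was 37.1% for col genes and 35.3% for all genes. Of the 31-base words in a window, the median share found more than once in the genome was 2.12% for col genes and 0.283% for all genes. Among windows with no such repeated word, 24.4% of 41 col genes had a pooled summit against 60.7% of 8845 genes, with 43.9% against 64.5% in replicate 1 and 31.7% against 62.2% in replicate 2. Among the other windows the shares were 36.5% of col genes against 49.3% in the pooled list, 40.9% against 52.8% in replicate 1 and 40.9% against 50.5% in replicate 2. In the highest GC band, over 39%, the pooled shares were 29.2% of 48 col genes and 42.7% of all genes, and in the lowest, under 33%, 50% of 12 col genes and 61.3% of all genes. The replicates parted in that lowest band, with 33.3% of col genes and 58.0% of all genes in replicate 1, and 58.3% of col genes and 61.6% of all genes in replicate 2.

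**Figure D3:**
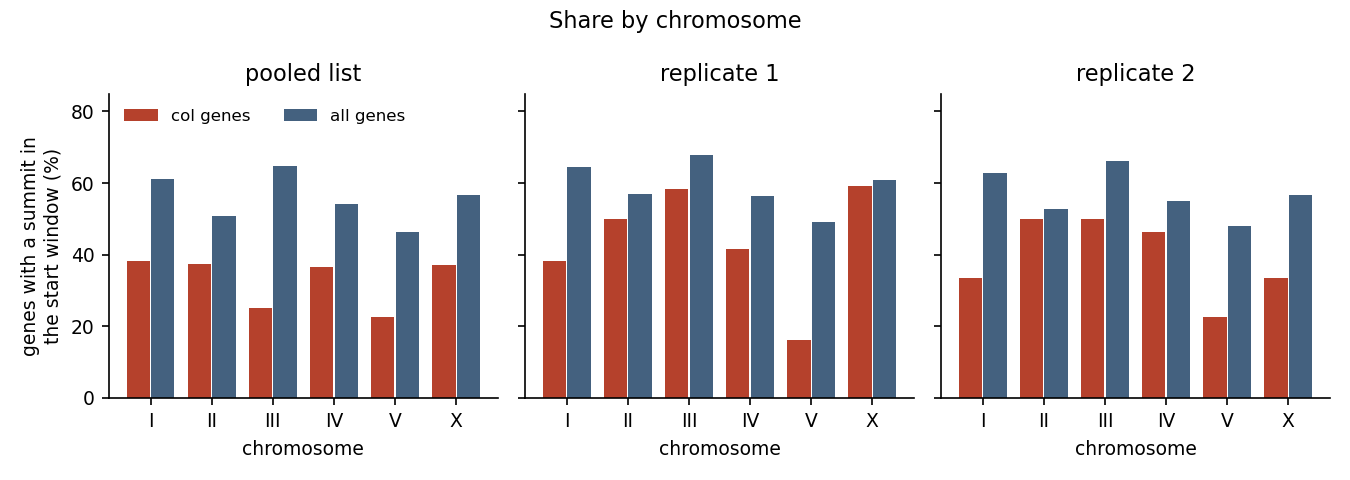
Bars give the share of genes with a relaxed summit in the start window (y axis, percent) by chromosome (x axis), col genes in red beside all genes in blue, for the pooled list and the 2 replicates. The red bar is the lower one in each pair; the widest gap is 25% against 64.7% on III in the pooled list and the narrowest 59.3% against 60.8% on X in replicate 1.

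The strongest col site belonged to col-94. This gene (WBGene00000669) lies at III:10986808-10987873 on the minus strand and encodes a cuticle collagen of 304 residues. Its strongest summit had a signal of 34.6 in replicate 1 (rank 39) and 53.7 in replicate 2 (rank 49), and the pooled signal was 85 (rank 42). All 3 lists thus placed it among the strongest sites of the genome, and the 2 replicate summits were 15 bp apart. The pooled summit was 1783 bp upstream of the start, in an intron of dhc-4, a dynein heavy chain gene, and 23 bp from R07E5.16, an snRNA gene at III:10989679-10989780 on the plus strand. A second pooled summit 1985 bp upstream, in a coding exon of dhc-4, had a signal of 50.1 (rank 174) and lay 78 bp from the same snRNA gene. Both were thresholded, and both were near the far edge of the window.

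The other 2 thresholded col genes were col-71 and col-85, on chromosome II. At col-71 (WBGene00000647, II:3500077-3502570, minus strand), a cuticle collagen gene, the signal was 12.01 in replicate 1 (rank 931) and 36.3 in replicate 2 (rank 146), with a pooled signal of 50.8 (rank 169). The replicate summits were 3 bp apart. The pooled summit was intergenic, 248 bp upstream of col-71 and 150 bp from the start of its neighbour Y49F6B.2, so the nearer start was not that of the collagen. At col-85 (WBGene00000660, II:12493703-12495095, minus strand) the signal was 11.9 in replicate 1 (rank 944) and 33.2 in replicate 2 (rank 195), with a pooled signal of 42.7 (rank 261). That summit lay 307 bp inside the gene, in an intron, and within a tRNA gene at II:12494741-12494814 on the plus strand. Of the 31-base words within the 121 bases printed for it, 60.4% occurred more than once in the genome. The share was 14.3% at col-94 and 0 at col-71.

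Several of the strongest col sites lay beside tRNA or snRNA genes, a feature noticed after the values were seen. Of the 4 thresholded summits in col windows, 3 lay within 100 bp of a nuclear tRNA or snRNA gene, against 17, or 5.57%, of the 305 thresholded summits in the start windows of all genes. Of these 3, 2 were the summits at col-94 beside the same snRNA gene. Among the 5000 strongest peaks such summits were 4 of 15 in col windows in the pooled list, 3 of 12 in replicate 1 and 4 of 13 in replicate 2. In the start windows of all genes they were 51 of 2561 (1.99%), 40 of 2463 (1.62%) and 43 of 2503 (1.72%). The next such site was at col-185 (WBGene00000758, X:13510035-13511097, minus strand), with signals of 10.2 in replicate 1 (rank 1630) and 18.8 in replicate 2 (rank 1148), and 23.5 pooled (rank 1437), 851 bp upstream of the start and 22 bp from a tRNA gene. A tRNA or snRNA gene lay in 5 col windows, 3.21%, against 297, or 1.49%, of all windows, and the 5 were those of col-54, col-85, col-94, col-155 and col-185. Among the 151 col genes without one, 1 was thresholded, 0.662% against 2.43% of such genes, and 49 had a pooled summit, 32.5% against 54.2%. The part of these RNA genes in the peaks was not tested.

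After the thresholded genes, col-55 (WBGene00000632, I:6199673-6200193, plus strand) had the highest pooled signal of the col genes, and 3 pooled summits, more than any other col gene. Its strongest summit had a signal of 7.22 in replicate 1 (rank 5510) and 17.6 in replicate 2 (rank 1387), with a pooled signal of 33.3 (rank 542), in intergenic sequence 1098 bp upstream. It encodes the shortest protein of the family, 154 residues, and is 1 of 7 col genes whose product name does not mention the cuticle. Of these 7, a pooled summit was present at col-52, col-55, col-87 and col-135, while col-17 had one in replicate 2 only and col-46 and col-47 had none.

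The replicates parted on most of the other members of the 15 highest pooled signals, though not on col-7 and col-115. A weak rank in replicate 2 went with a stronger one in replicate 1 at col-52 (signal 10.8, rank 1339 in replicate 1, and 6.32, rank 25123 in replicate 2), col-34 (9.96, rank 1800, and 6.74, rank 22555) and col-138 (8.82, rank 2811, and 5.92, rank 27787). The gene col-34, also named ram-4, is known for its role in the shape of the male rays. The opposite held at col-64, whose summit lay in an intron of mom-4, a protein kinase gene, with a signal of 18.3 (rank 1247) in replicate 2 and no summit in replicate 1. The strongest summit found in replicate 1 alone was that of col-2, singled out after its values were seen, with a signal of 14.3 (rank 489) in replicate 1, 428 bp upstream of its start and 258 bp from that of ndc-80, and no summit in replicate 2 or the pooled list. Replicate 1 also had no summit at col-165, col-171 and col-186, which had pooled signals of 17.1, 14.3 and 13.8. In replicate 2 these had signals of 5.64 (rank 29793), 11.2 (rank 6786) and 6.68 (rank 22954) in turn, so col-165 and col-186 were weak there too. At col-7, a cuticle collagen gene of the adult, the signals were 6.74 in replicate 1, 12.4 in replicate 2 and 19.3 pooled, the pooled summit being 64 bp upstream of its start and 45 bp from that of C15A11.4. At col-115, beside the tubulin acetyltransferase gene mec-17, they were 5.56 in replicate 1, 12.3 in replicate 2 and 16.7 pooled, the pooled summit being in its coding exon, 76 bp past the start. At col-89 they were 5.45 in replicate 1 and 5.97 in replicate 2, with a pooled signal of 13.8. These col-89 summits lay 264, 840 and 780 bp upstream in turn, and a weaker replicate 1 summit (signal 5.19) lay at -878 bp.

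By the poorer of their 2 replicate ranks, col-94, col-71, col-85 and col-185 led the family with 49, 931, 944 and 1630. They were followed by col-55 at 5510, col-7 at 6865, col-68 at 7566, col-115 at 11605, col-135 at 11770 and col-40 at 14722. The gene col-40 encodes a cuticle collagen of 302 residues whose replicate 2 summit lay 211 bp inside the gene and whose replicate 1 summit lay 836 bp upstream of it. At col-135, with Gly-X-Y triplets over 90.0% of its residues, the signals were 5.53 in replicate 1 and 15.9 in replicate 2, with a pooled signal of 11.3. Its replicate 1 summit lay 262 bp past the start, and the replicate 2 and pooled summits 65 and 158 bp upstream.

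**Figure D4:**
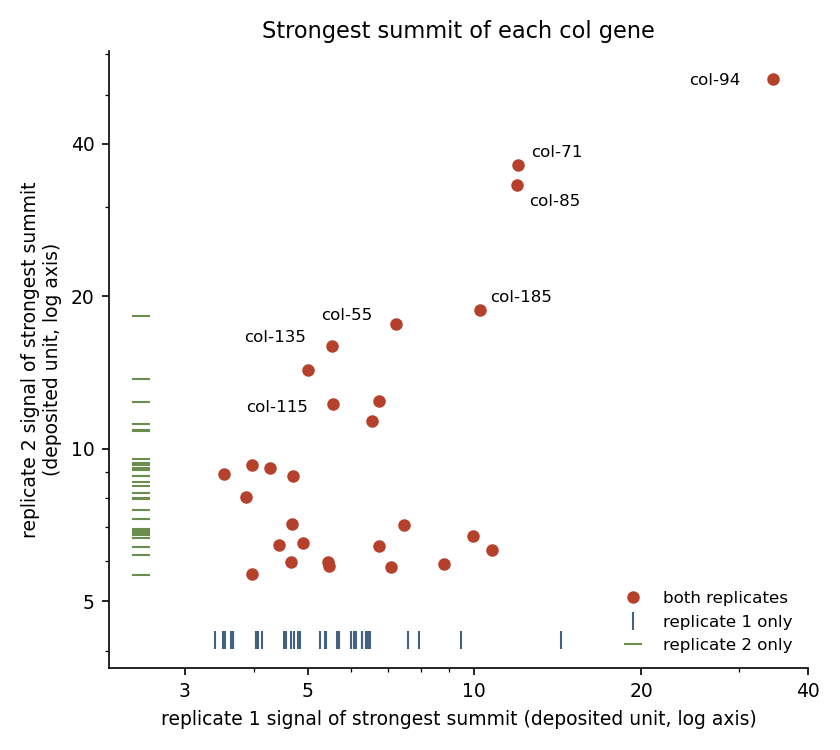
Each red point is 1 of the 28 col genes with a summit in both replicates, at the signal of its strongest summit in replicate 1 (x axis, log scale) and replicate 2 (y axis, log scale), both in the deposited unit; ticks along the axes are the 37 genes found in replicate 1 only and the 32 found in replicate 2 only. The gene col-94 stands apart at 34.6 and 53.7, col-71 and col-85 follow, and most of the rest lie near the lower end of both lists.

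Of 11 col genes chosen with earlier results of these data known, 8 had a pooled summit. Among the 5000 strongest, 4 had one, namely col-94, col-71, col-7 and col-34, described above. Over the 156 col genes these shares were 33.3 and 7.69%, against 54.3 and 16.6% of all genes. The choice took in strong sites such as col-94 and col-71, so the counts of the 11 do not stand for the family. The remaining 7 had weaker pooled peaks or none. The adult collagen gene col-19 had no summit in any list, nor did col-10 and col-13, of which col-13 is a close copy of col-12. At col-12 there was a pooled summit with a signal of 8.59 (rank 26195) and a replicate 2 summit with 6.18, 1215 and 1175 bp upstream, and the pooled one was 60 bp from the start of apc-10, a subunit gene of the anaphase-promoting complex. The gene col-62 had 5.98 in replicate 1 and 8.02 in the pooled list, within an intron of C15A11.7, and col-144 had 3.63 in replicate 1 and 10.2 in the pooled list. The gene col-99, which encodes a transmembrane collagen of 735 residues known for a role in axon guidance, had 13.7 (rank 3380) in replicate 2, 12.4 in the pooled list and no summit in replicate 1. The 37 col genes with a pooled summit outside the 15 highest had signals from 8.004 to 12.9.

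Col genes in tandem had a lower pooled share than the others, but not in both replicates. Runs of at least 3 col genes with starts no more than 10000 bp apart formed 6 clusters with 20 members. A pooled summit was present at 4 of these 20, 20%, against 48 of the 136 col genes outside clusters, 35.3%. Replicate 1 gave 25% in clusters and 44.1% outside, whereas replicate 2 gave 40% in clusters and 38.2% outside. In the run of col-79, col-39 and col-80 no member had a summit in any list. In the run of col-92, col-93 and col-94, col-94 alone had a pooled summit. Among the 5 genes from col-167 to col-171, col-169 and col-171 had one, and none of the 5 had a summit in both replicates.

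Genes of the same extracellular matrix were set beside the col genes, from lists chosen with earlier results of these data known. Over all genes the shares to read them against were 54.3% in the pooled list, 58.0% in replicate 1, 55.7% in replicate 2 and 37.9% in both replicates. Of 20 cuticle collagen genes with other names, mostly of the dpy, rol, sqt and bli classes whose mutants have altered body shape or blistered cuticle, 45% had a pooled summit (23.1 to 68.5%), 70% one in replicate 1 and 60% one in replicate 2. A summit in both replicates was present at 10 of them, 50% (27.2 to 72.8%), where the col genes had 17.9%. The strongest of these was bli-6, with signals of 10.9 in replicate 1 (rank 1273) and 14.3 in replicate 2 (rank 2905), with a pooled signal of 26.4 (rank 1036). It was followed by sqt-2 with 5.99 in replicate 1 and 12.2 in replicate 2, with a pooled signal of 15.1. These sqt-2 summits differed in place, at -1379 bp from the start in replicate 1, -631 bp in replicate 2 and -1390 bp pooled (negative is upstream). Of the 3 basement membrane collagens, let-2, a type IV collagen chain, had a pooled summit with a signal of 12.6. A summit in both replicates was present at 2 of the 3, let-2 (6.50 and 11.1) and cle-1 (3.90 and 6.69), and emb-9 had none in any list.

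Genes that modify, secrete or cross-link collagen had the highest pooled share of these lists. Of these 20, 15 had a pooled summit, 75% (50.9 to 91.3%), 80% had one in replicate 1, 70% in replicate 2 and 65% in both. One of them was thresholded, tmem-39, which acts in collagen secretion, with signals of 18.8 in replicate 1 (rank 205) and 28.4 in replicate 2 (rank 312), with a pooled signal of 49.0 (rank 184), 1013 bp upstream. The tetraspanin gene tsp-15, which acts with the oxidase that cross-links the cuticle, had 9.03 in replicate 1 and 29.4 in replicate 2, with a pooled signal of 34.1. Its summits were at different sites, 368 bp past the start in replicate 1 and at -1314 bp in replicate 2 and the pooled list (negative is upstream). The disulfide isomerase gene pdi-3 had 6.70 in replicate 1 and 11.6 in replicate 2, with a pooled signal of 20.7. Of 42 genes for cuticulins and other non-collagen matrix proteins, 45.2% had a pooled summit and 23.8% a summit in both replicates. They were led by cutl-28 with 9.10 in replicate 1, 14.2 in replicate 2 and 22.5 pooled, and cutl-5 with 7.65 in replicate 1, 17.4 in replicate 2 and 19.04 pooled. The cutl-28 summit was at -673 bp in replicate 1 but at -1465 bp in replicate 2 and -1468 bp pooled. Of 16 regulators of the epidermis and of molting, 56.2% had a pooled summit and 43.8% one in both, led by grh-1, the Grainyhead factor gene, with a pooled signal of 18.4, 16.2 in replicate 2 and no summit in replicate 1, and mlt-8 with 4.97 in replicate 1, 8.11 in replicate 2 and 15.3 pooled. The lists are small, and their difference from the col genes was not tested.

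**Figure D5:**
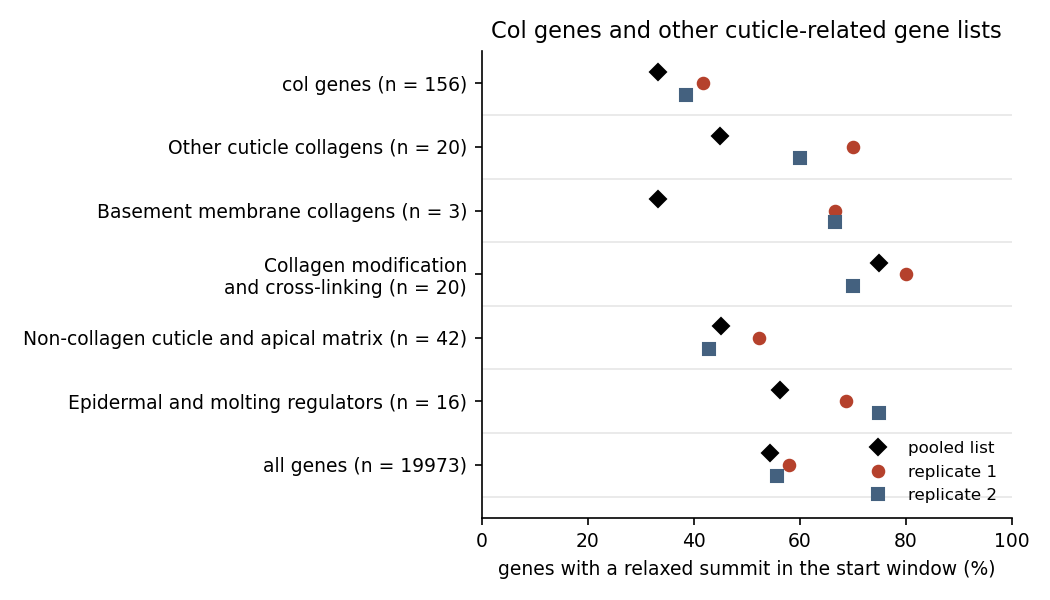
The share of genes with a relaxed summit in the start window (x axis, percent) is shown for the col genes, 5 related lists and all genes (y axis, with the number of genes), as diamonds for the pooled list, circles for replicate 1 and squares for replicate 2. The col genes lie at 33.3, 41.7 and 38.5%; the collagen modification and cross-linking genes lie highest in the pooled list, at 75%.

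Letters of 4 motifs were searched in col promoters on both strands, from 250 bases before to 50 after the start. TGATNNAT, a site of the kind that Hox proteins bind with their PBC partners, was in 32 col promoters, 20.5% (14.5 to 27.7%), against 23.6% of all promoters of the same length. TAATTA, a homeodomain core, was in 14.7% of col promoters and 15.5% of all promoters. GATAA, the core of GATA factor sites, was in 62.2% of col promoters and 57.6% of all, and AGGTCA, a nuclear receptor half-site, was in 13.5% of col promoters (8.53 to 19.8%) and 8.27% of all. GATAA and TGATNNAT can overlap. Within 100 bases of the 65 pooled summits in col windows, TGATNNAT was found at 18.5% (9.92 to 30.0%) against 15.6% of 12765 such summits of all genes, and TAATTA at 9.23% against 11.8%. Of the 4 printed sequences, the one at col-185 held GATAA and none held TGATNNAT or TAATTA. These matches describe letters in the genome and not binding.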

How the data were processed

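ChIP-seq peaks of eGFP-tagged MAB-5 in whole mixed-stage embryos were analysed for 2 biological replicates, which the labels place in 1 group. The authors deposited, per the file descriptions, relaxed lists of 30000 peaks each for replicate 1, replicate 2 and both pooled, called against a control alignment, and a thresholded list of 502 derived from them, on ce11. The deposited signal values are the authors' own measure of each peak. No source used here states their scale, the peak caller or the aligner. Depth is unknown, the control reads are not analysed here, and the thresholded list is not independent of the others. Lists on the older build ce10 were not used. Where replicate values are given with an SD, it measures the spread of the 2 libraries.

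Summits were matched to starts of 19973 nuclear protein-coding genes of Ensembl release 115, with RefSeq symbols for 99.94% of them, both on WBcel235. Peaks on the mitochondrial genome were not matched to genes, which left 481 of the 502 thresholded peaks and 29978 of the 30000 pooled relaxed peaks. Ranks and sets of strongest peaks were taken over each whole list, mitochondrial peaks included. Shares were computed for the col genes and for all genes, which include them, with exact binomial 95% intervals, for counting error alone. No test was run between them. The members and the related lists were chosen with earlier results of these data known. Named genes were every col gene with a thresholded summit, the 15 with the highest pooled signal, the 10 with the best poorer rank of the replicates, 11 genes chosen with earlier results known, cluster members and, per related list, thresholded genes and up to 2 others by pooled signal. Window matching was tested on planted summits. Python 3.11.15, pandas 2.3.3, numpy 2.4.6, scipy 1.17.1 and matplotlib 3.10.9 were used. Alternatives were other windows, nearest starts, windows without another start, single replicates, stricter lists, a longer promoter and, chosen after seeing the data, leaving out summits within 100 bp of a tRNA or snRNA gene.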

Additional observations from a re-analysis of the deposited data

How the results depend on the processing

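Of 30 alternative settings of the shares of col genes with a summit, 29 left the col genes below all genes. The exception was the 251 strongest thresholded peaks, with 1.28% of col genes against 1.10% of all genes. A window of 1000 bp upstream gave 1.28% (thresholded), 23.7% (pooled), 11.5% (both replicates) and 6.41% (5000 strongest) of col genes. The same window gave 1.85, 41.9, 24.2 and 12.3% of all genes. One of 5000 bp gave 2.56, 58.3, 47.4 and 14.1% of col genes, against 3.92, 73.3, 64.3 and 26.6% of all genes. Counting a summit for its nearest start alone gave 1.28% thresholded, 28.2% pooled and 6.41% of the 5000 strongest. All genes then had 1.47, 42.8 and 11.5%. Windows without the start of a gene other than col genes, those of 113 col genes, gave 0.885% thresholded and 7.08% of the 5000 strongest. Over all genes with such windows these were 1.38 and 13.1%. The 15000 strongest peaks of each relaxed list gave 16.0% pooled, 6.41% in both replicates and a median signal of 14.3 in col genes. All genes had 35.6%, 18.5% and 15.6 there. The 2500 strongest peaks gave 3.21% of col genes against 10.2% of all genes. Using 1 replicate at a time, the 502 strongest peaks of its relaxed list stood in for the thresholded list. The share of col genes was then 1.28 to 1.92% for these peaks. It was 38.5 to 41.7% for the whole relaxed list and 7.05 to 7.69% for the 5000 strongest. Over all genes these were 2.25 to 2.27%, 55.7 to 58.0% and 15.8 to 15.9%. The median signal was 5.45 to 8.53 in col genes and 5.68 to 9.54 in all genes, on each list's own scale. The median distance was -883 to -574 bp in col genes and -587 to -580 bp in all genes. The median distance of -758 bp in col genes, against -570.5 bp over all genes, became -395 bp with the 1000 bp window and -2706 bp with the 5000 bp window, as the window sets it, and in replicate 1 it was -574 bp against -580 bp. Taking 500 bases before the start, TGATNNAT was in 33.3% of col promoters and 35.4% of all. Without summits near a tRNA or snRNA gene, an alternative chosen after seeing the data, 0.641% of col genes were thresholded, against 2.39% of all genes, and 5.77% had one of the 5000 strongest, against 16.3%. The thresholded result rests on 3 genes, and unknown read depth limits all values. No paired analysis was possible because there is 1 group.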
